A study of Mus musculus with 6 samples.

Results

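Genes of DNA repair and the DNA damage checkpoint were followed in mouse spleens with and without induced AIMP2-DX2. The set was a fixed list of 36 gene symbols covering homologous recombination, the Fanconi anaemia pathway, mismatch repair, base repair and lesion bypass, end joining, and the checkpoint with its break sensors. A gene was measured where a probe set of the array was annotated to it and to no other gene, and the brightest such probe set was used where there were several. By this rule 33 of the 36 were measured, out of 22180 genes in all. Rad54b and Fanca were covered only by probe sets that also carry Fsbp or Zfp276, and Xrcc2 was not analysed here. Values are log2 expression values, so a difference of 1 is a doubling, and a difference is always DX2 minus control. Levels of different genes come from different probes and were not set against each other.

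The DX2 group was 3 spleens of mice in which the CAG promoter drives rtTA, an activator that works when doxycycline is given (genotype CAG-rtTA; TRE DX2/+), and the control group was 3 spleens of littermates with the same DX2 transgene and no rtTA (genotype 0; TRE DX2 /+). AIMP2 holds tRNA synthetases together in a large complex, and DX2 is a splice variant that lacks part of the protein. Mice of both groups ate pellets with doxycycline (6.25 mg/kg) from 8 weeks of age and were 1 year old, each sample was a biological replicate per the labels, and the RNA was that of the whole spleen. Only the DX2 mice carried rtTA, so DX2 and rtTA cannot be told apart. Judged by Xist and Y-linked Eif2s3y, controls 1 and 2 were female, and control 3 and all DX2 spleens were male. Sex and DX2 therefore overlap in large part and can be told apart only through control 3.

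Homologous recombination mends double-strand breaks by copying an intact sister strand, a process in which BRCA1, BRCA2 and their partners take part. The Fanconi proteins remove crosslinks between the strands, mismatch repair corrects replication errors, and end joining ligates broken ends directly, which lymphocytes also use to rearrange antigen receptor genes. ATM and ATR are the kinases that sense damage, and they signal through CHK2 and CHK1 to halt the cell cycle. Many recombination, Fanconi and CHK1 pathway genes are transcribed mainly in S and G2 phase, whereas the end joining factors are present throughout the cycle.

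The genes of homologous recombination, the Fanconi pathway and the checkpoint effectors mostly had higher means in DX2 spleens. Lower at an unadjusted p under 0.05 in limma were Prkdc and Xrcc5 of end joining, the kinase Atm, Parp1 and Pms2. These 5 of 33 genes are 15.2%, against 7.82% of all genes. Every DX2 array lay below every control array in the same 5, a share near the 11.2% of all genes. The kinase Atr and the other end joining genes overlapped between groups. The resection nuclease Exo1 had the smallest p, at 1.82-fold higher in DX2 (log2 difference 0.87, SE 0.13, n = 3 each), followed by the helicase Brip1 at 1.55-fold higher. Prkdc, the catalytic subunit of the DNA-dependent protein kinase of end joining, was 1.30-fold lower and the damage kinase Atm 1.40-fold lower. None of the 33 genes passed an adjusted p of 0.05 in limma with Benjamini-Hochberg adjustment over all genes, where 0.316% of all genes did, and the lowest adjusted p were 0.0603 for Exo1 and 0.0764 for Brip1.

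At an unadjusted p under 0.05 in limma, 11 of the 33 genes (33.3%) were higher in DX2, against 8.13% of all genes, and 5 (15.2%) were lower, against 7.82%. Every DX2 array lay above every control array for 9 genes (27.3%), against 10.7% of all genes, and below for 5 (15.2%), against 11.2%. The median difference of the 33 genes was 0.24, with 24 higher and 9 lower, beside a median of 0.0085 over all genes. Centring each array on its median moved the latter to 0.10. The counts at an unadjusted p under 0.05 in limma then became 15 higher and 1 lower, beside 13.9% and 4.43% of all genes. With a second quantile normalization they were 13 higher and 4 lower, beside 11.4% and 6.29%.

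**Figure D1:**
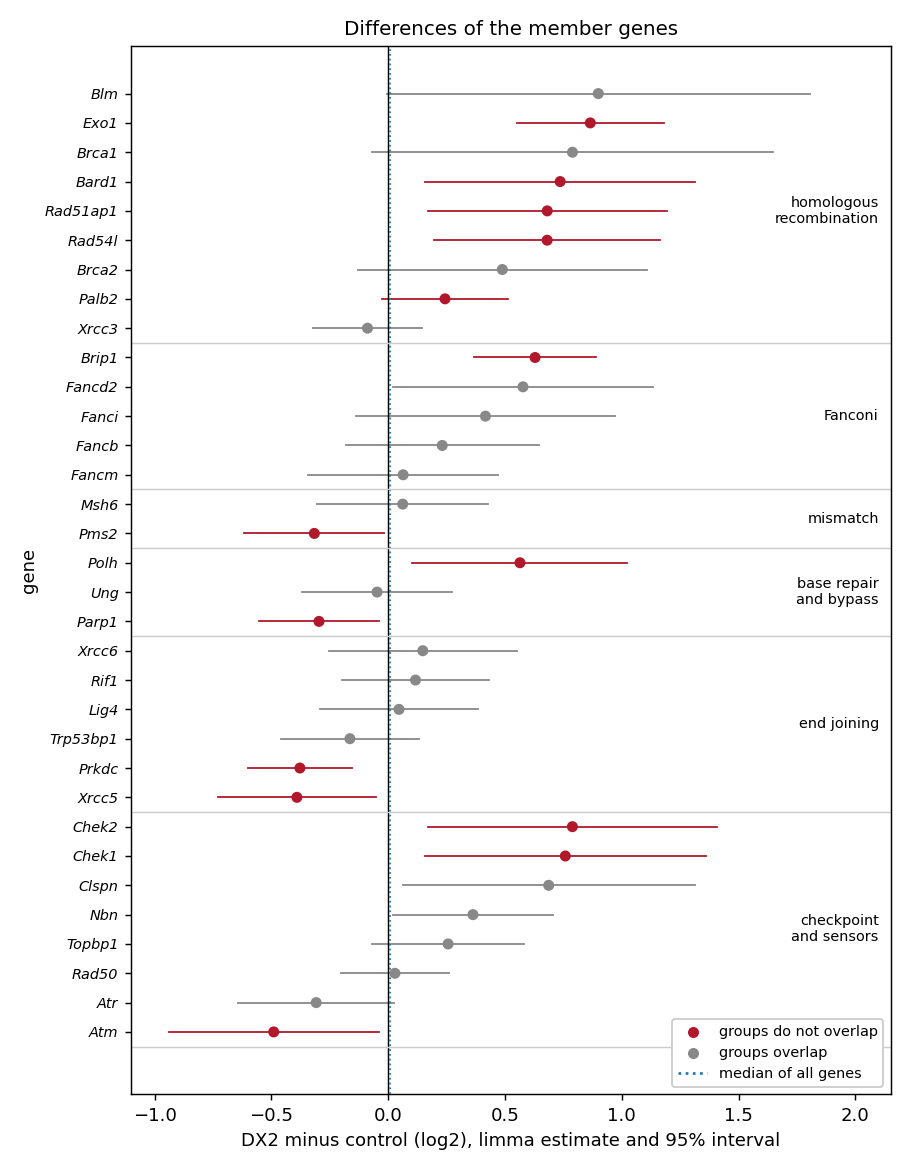
Log2 difference (DX2 minus control, x axis) of the 33 measured genes by role, with the 95% interval from limma (n = 3 each). Red marks the 14 genes whose groups did not overlap, 9 higher and 5 lower, and the dotted line is the median of all genes (0.0085).

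The 6 arrays did not share the pattern evenly. Of the 24 genes with a higher DX2 mean, 17 had their highest value on DX2 1 and 20 their lowest on control 1, and in 19 of them DX2 2 was the lowest DX2 array. DX2 1 and DX2 3 both lay above every control array for 18 of the 33 genes, and for 9 of these DX2 2 did not. Averaged over the 33 genes, the arrays read 6.38, 6.70 and 6.67 in controls 1, 2 and 3 and 6.96, 6.66 and 6.92 in DX2 1, 2 and 3, so DX2 2 stood at the level of controls 2 and 3. The count of 11 higher genes was 4 without control 1, 6 without DX2 1 and 5 without DX2 3, beside 5.48%, 8.42% and 5.91% of all genes. The count of 5 lower genes was 1 without control 2, control 3 or DX2 1 and 3 without control 1, DX2 2 or DX2 3, beside 5.92% to 8.62% of all genes. Without DX2 2 the 9 genes entirely above control became 18, beside 17.9% of all genes.

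**Figure D2:**
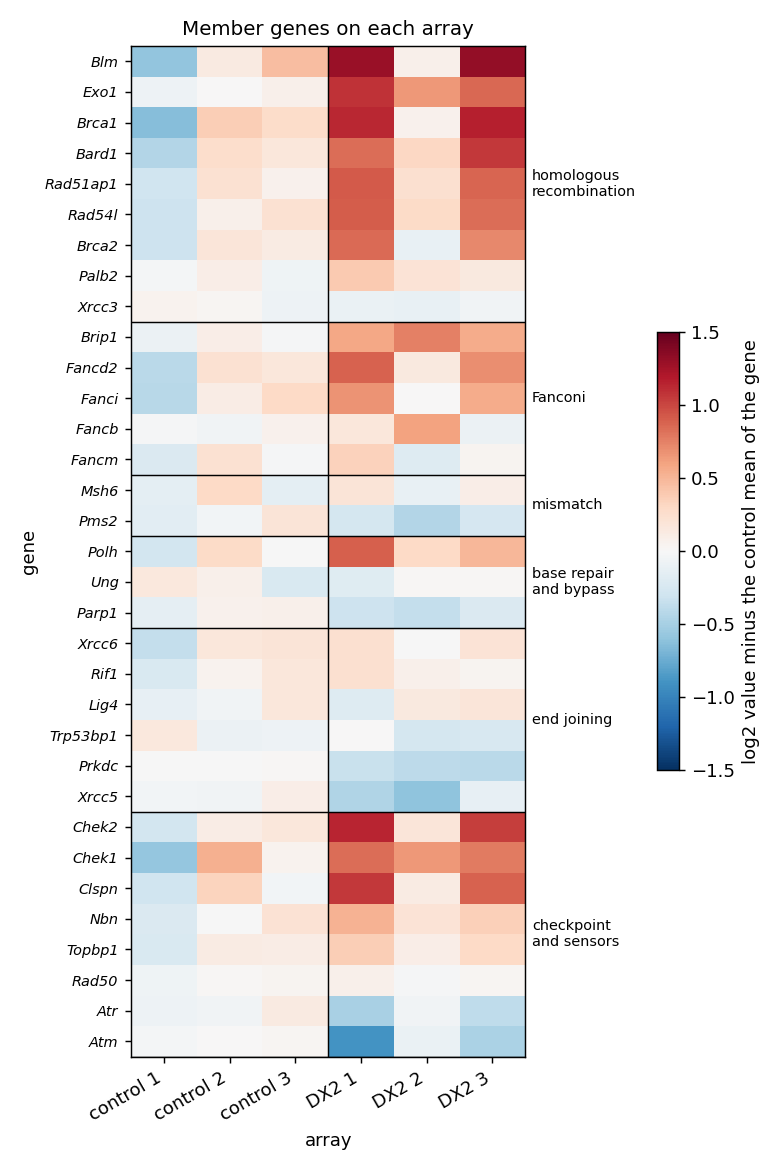
Log2 value minus the control mean of the same gene (colour) for 33 genes (rows, by role) on 6 arrays (columns). Most recombination genes and the checkpoint genes Chek2 and Clspn are strongest red on DX2 1 and DX2 3, paler on DX2 2 and blue on control 1, while Prkdc and Xrcc5 are blue on all DX2 arrays.

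Markers of dividing and of erythroid cells were higher on the same arrays as the recombination and checkpoint genes. All 19 measured proliferation markers were higher in DX2, 18 of them at an unadjusted p under 0.05 and none past the adjusted threshold (limma), with a median of 1.00. Their mean log2 value was 7.06, 7.92 and 7.80 in controls 1, 2 and 3 and 8.74, 8.10 and 8.64 in DX2 1, 2 and 3, which has control 1 lowest and DX2 1 and DX2 3 highest, as the recombination genes do. Aurkb, a mitotic kinase, differed by 1.06 and Plk1, another, by 1.10. All 13 erythroid precursor markers were higher (median 1.19, 1 at an unadjusted p under 0.05, 0 past the adjusted threshold in limma), and their means ran 6.26, 8.04 and 7.90 in control and 9.54, 7.18 and 9.17 in DX2. B cell markers stood the other way, all 10 lower (median -1.24, 4 past the adjusted threshold), with means of 9.67 to 10.04 in control and 7.88 to 8.67 in DX2. The part of these cells in the results was not tested, and in whole spleen RNA fewer cells of a type and less RNA per cell cannot be told apart.

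**Figure D3:**
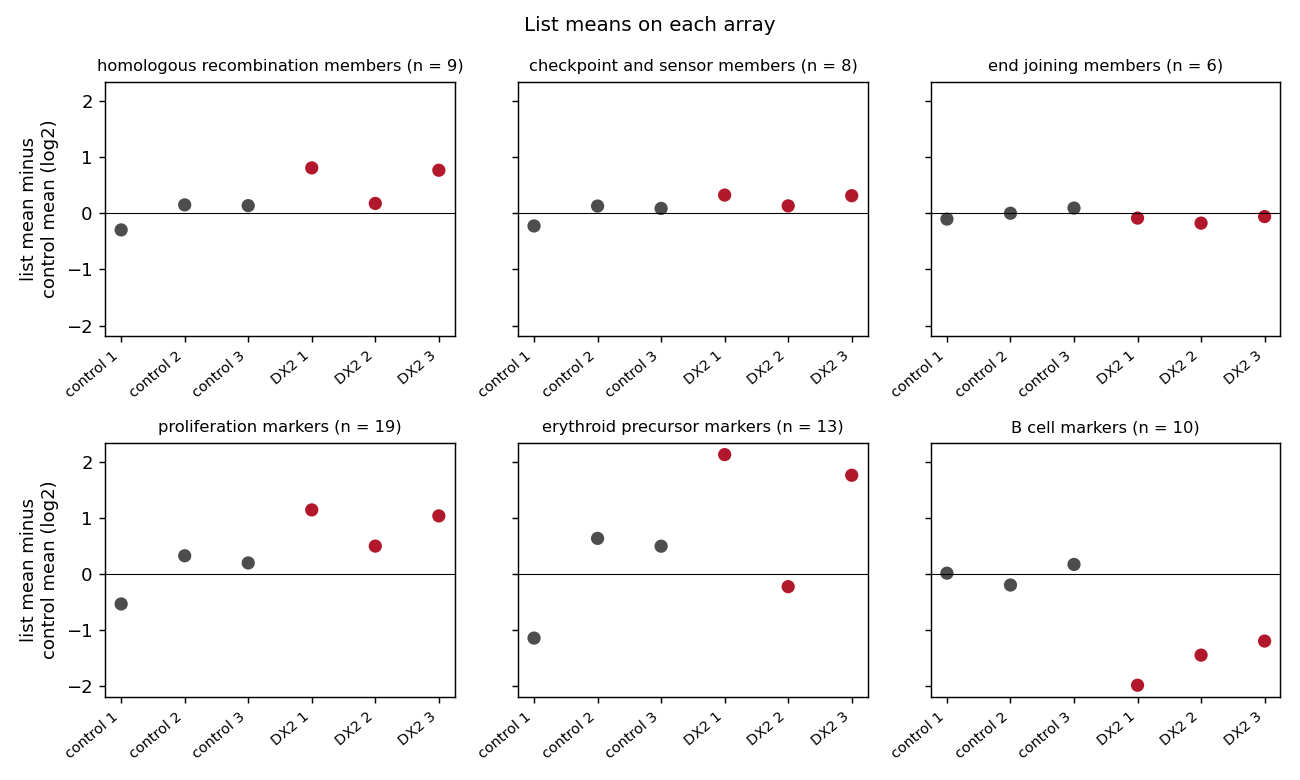
Mean log2 value of a gene list on each array, minus its mean over the 3 control arrays (y axis), for 3 groups of repair genes and 3 marker lists. Homologous recombination and checkpoint genes run with the proliferation and erythroid markers from array to array, the end joining genes stay within a narrow band, and the B cell markers are below 0 on all 3 DX2 arrays.

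Other cell types and the sex of the mice differed between arrays as well. All 10 T cell markers were lower (median -0.38), none past the adjusted threshold and 1 at an unadjusted p under 0.05 in limma, with DX2 1 at a mean of 6.85 and the other arrays between 7.86 and 8.19. Of 12 red pulp macrophage markers 10 were higher (median 0.48) and 1, Cd5l, passed, with means of 8.51 to 8.75 in control and 9.12 to 9.28 in DX2. Every DX2 array lay above every control array for 8 of them (66.7%), against 10.7% of all genes. The list was not uniform, as Slc40a1 (-0.33) and Hmox1 (-0.032) were lower. Adgre1 (0.19) and Cd163 (0.17) overlapped between groups. Neutrophil and platelet lists had medians of 0.51 and 0.46 with 0 genes passing or at an unadjusted p under 0.05 in limma, and DX2 1 was highest in both (9.16 and 8.99, other arrays at most 8.00 and 7.42). Germinal centre B cell (-0.054) and plasma cell (-0.13) lists had medians close to 0, with 1 gene each at an unadjusted p under 0.05 and 0 past the adjusted threshold. Xist was 10.9 and 10.5 on controls 1 and 2 and at most 4.29 elsewhere, while Y-linked Eif2s3y was at least 8.00 on the other 4 arrays and at most 3.40 on these, so both female spleens were controls. The probe set of Aimp2 is annotated to Eif2ak1 too and gave no check of the transgene.

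Promoter sequences of the measured genes, whether higher, lower or level, were read from RefSeq (GRCm38.p6) as the 250 bases before the start of transcription. Of the 33 genes, 27 matched by symbol. They were searched on both strands for an E2F-type site (TTTCCCGC, TTTCGCGC, TTTGCCGC or TTTGGCGC), the kind of site through which E2F factors drive S phase genes, for a CHR-type site of G2 and M phase genes (TTTGAA or TTCGAA) and for the CCAAT box. An E2F-type site was found in 5 of the 27 (18.5%), namely Brca2, Bard1, Xrcc6, Chek2 and Topbp1, against 2.16% of 27025 genes in the table. CHR-type sites were in 2 (7.41%, against 19.6%) and CCAAT in 14 (51.9%, against 37.5%). Of the 8 matched genes that were higher at an unadjusted p under 0.05, 2 held an E2F-type site and 5 a CCAAT box, and of the 4 that were lower, 0 held an E2F-type site and 3 a CCAAT box. A match of letters is a description and not a shown binding site, and its relation to the values was not tested.

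The sequences below belong to the 4 genes with an E2F-type site that had the smallest unadjusted p, shown because these genes include checkpoint and recombination members described next. They are given 5′ to 3′ on the strand of the gene, ending at the base before the start, with the E2F-type match in capitals (the reverse complement in Chek2, Brca2 and Topbp1). Chek2 lies at chr5:110839733-110839982 on the plus strand, Bard1 at chr1:71102973-71103222 on the minus strand, Brca2 at chr5:150522371-150522620 on the plus strand and Topbp1 at chr9:103305077-103305326 on the plus strand.
Chek2: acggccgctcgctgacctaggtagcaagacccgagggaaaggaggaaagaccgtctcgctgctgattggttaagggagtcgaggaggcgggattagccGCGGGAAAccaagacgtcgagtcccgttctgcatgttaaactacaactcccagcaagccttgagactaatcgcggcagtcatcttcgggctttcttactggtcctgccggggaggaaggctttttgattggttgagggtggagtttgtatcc
Bard1: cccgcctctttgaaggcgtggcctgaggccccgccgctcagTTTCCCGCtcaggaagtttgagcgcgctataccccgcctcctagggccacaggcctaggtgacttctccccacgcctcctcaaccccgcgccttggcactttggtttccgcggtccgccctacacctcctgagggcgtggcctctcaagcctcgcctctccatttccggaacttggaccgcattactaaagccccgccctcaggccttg
Brca2: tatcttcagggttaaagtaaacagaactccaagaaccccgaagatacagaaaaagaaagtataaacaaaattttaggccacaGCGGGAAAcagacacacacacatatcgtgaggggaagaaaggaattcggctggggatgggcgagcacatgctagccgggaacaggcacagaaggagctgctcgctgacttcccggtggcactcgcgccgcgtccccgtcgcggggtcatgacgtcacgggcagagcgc
Topbp1: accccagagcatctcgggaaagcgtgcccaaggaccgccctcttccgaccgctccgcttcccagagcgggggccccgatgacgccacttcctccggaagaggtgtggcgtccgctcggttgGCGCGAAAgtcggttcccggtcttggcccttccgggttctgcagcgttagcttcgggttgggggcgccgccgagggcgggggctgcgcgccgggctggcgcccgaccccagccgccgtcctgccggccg
The match starts 152 bases before the start site in Chek2, 209 in Bard1, 168 in Brca2 and 129 in Topbp1. Chek2 also holds 2 CCAAT boxes on the opposite strand and Bard1 a TTTGAA.

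Homologous recombination genes had the largest median of the 6 role groups (0.68), with 8 of 9 measured genes higher in DX2 and 5 genes entirely above control, where 10.7% of all genes were. Exo1, the nuclease that resects broken ends and also acts in mismatch repair, read 6.10, 6.18 and 6.24 in controls 1, 2 and 3 and 7.26, 6.82 and 7.04 in DX2 1, 2 and 3. All 3 DX2 values were well above all 3 control values, and the lowest was again DX2 2. The difference was 0.87 (95% interval 0.55 to 1.18, adjusted p = 0.0603 in limma, unadjusted p = 0.000270), and it stayed between 0.76 and 0.97 when any 1 array was left out. Exo1 passed the threshold without DX2 2 (adjusted p = 0.0365), without the dimmest 40% of genes, with array weights and with a second quantile normalization. In these settings 370, 125, 547 and 84 of all genes passed, against 70 in the main fit. Exo1 did not pass without any other single array (adjusted p up to 0.242 in limma), with an Xist term or with arrays centred on their medians.

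Rad54l, Rad51ap1 and Bard1 formed a second tier with separated groups. Rad54l, a motor protein of recombination that moves along DNA, read 5.40, 5.78 and 5.94 in control and 6.62, 5.997 and 6.54 in DX2. Its lowest DX2 value and its highest control value were only 0.06 apart, and the difference was 0.68 (SE 0.21, adjusted p = 0.184 in limma). Rad51ap1, an accessory protein of recombination, read 5.51, 6.04 and 5.88 against 6.74, 6.05 and 6.69. For this gene DX2 2 was just above control 2, while DX2 1 and DX2 3 were higher, and the difference was 0.68 (SE 0.22, adjusted p = 0.201). Bard1, the ring finger partner of BRCA1 with an E2F-type site in its promoter, read 5.13, 5.83 and 5.74 against 6.41, 5.88 and 6.63, a difference of 0.74 (SE 0.25, adjusted p = 0.215).

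The breast cancer genes and the Bloom helicase had large differences and overlapping groups. Brca1, the ubiquitin ligase and mediator of recombination, read 5.94, 6.95 and 6.85 in control and 7.71, 6.64 and 7.75 in DX2. DX2 2 lay below controls 2 and 3, and the difference of 0.79 (SE 0.37, adjusted p = 0.352 in limma) was 0.47 without control 1 and 1.15 without DX2 2. Blm, a helicase that dissolves recombination intermediates, read 6.52, 7.25 and 7.57 against 8.41, 7.19 and 8.43, also with DX2 2 below controls 2 and 3. Its difference of 0.90 (SE 0.39) was the largest of the 33 and had an adjusted p of 0.317. Brca2, a mediator of recombination, read 5.95, 6.44 and 6.38 against 7.11, 6.15 and 6.98 (difference 0.49, SE 0.26). Palb2, the bridge between BRCA1 and BRCA2, had a small difference of 0.24 with separated groups, and Xrcc3, also a recombination gene, was level at -0.088 (95% interval -0.32 to 0.14).

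All 5 measured Fanconi genes had a higher mean in DX2 (median 0.42). Every DX2 array lay above every control array for 1 of them (20.0%), against 10.7% of all genes. Brip1, the helicase partner of BRCA1 also known as FANCJ, read 5.71, 5.90 and 5.78 in control and 6.38, 6.55 and 6.35 in DX2. It was highest on DX2 2 (0.18 above the mean of DX2 1 and DX2 3), the array that was the lowest of its group for 8 of the 9 recombination genes. The difference was 0.63 (95% interval 0.37 to 0.89, adjusted p = 0.0764 in limma), between 0.57 and 0.68 with any 1 array left out, and it passed with array weights (adjusted p = 0.0383).

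Fancd2 and Fanci, the pair of proteins that is ubiquitinated at crosslinks, had similar profiles across the arrays. Fancd2 read 6.18, 6.81 and 6.76 in control and 7.47, 6.73 and 7.28 in DX2 (difference 0.58, SE 0.24, adjusted p = 0.295 in limma). Fanci read 5.26, 5.80 and 5.98 against 6.36, 5.69 and 6.24 (difference 0.42, SE 0.24, adjusted p = 0.447). In both, DX2 2 lay below controls 2 and 3. Fancb, a subunit of the core complex, was high on DX2 2 alone (5.68, other arrays 4.99 to 5.25), and the DNA translocase Fancm differed by 0.064 (95% interval -0.34 to 0.47). Fancm was -0.042 without control 1 and -0.075 without DX2 1.

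**Figure D4:**
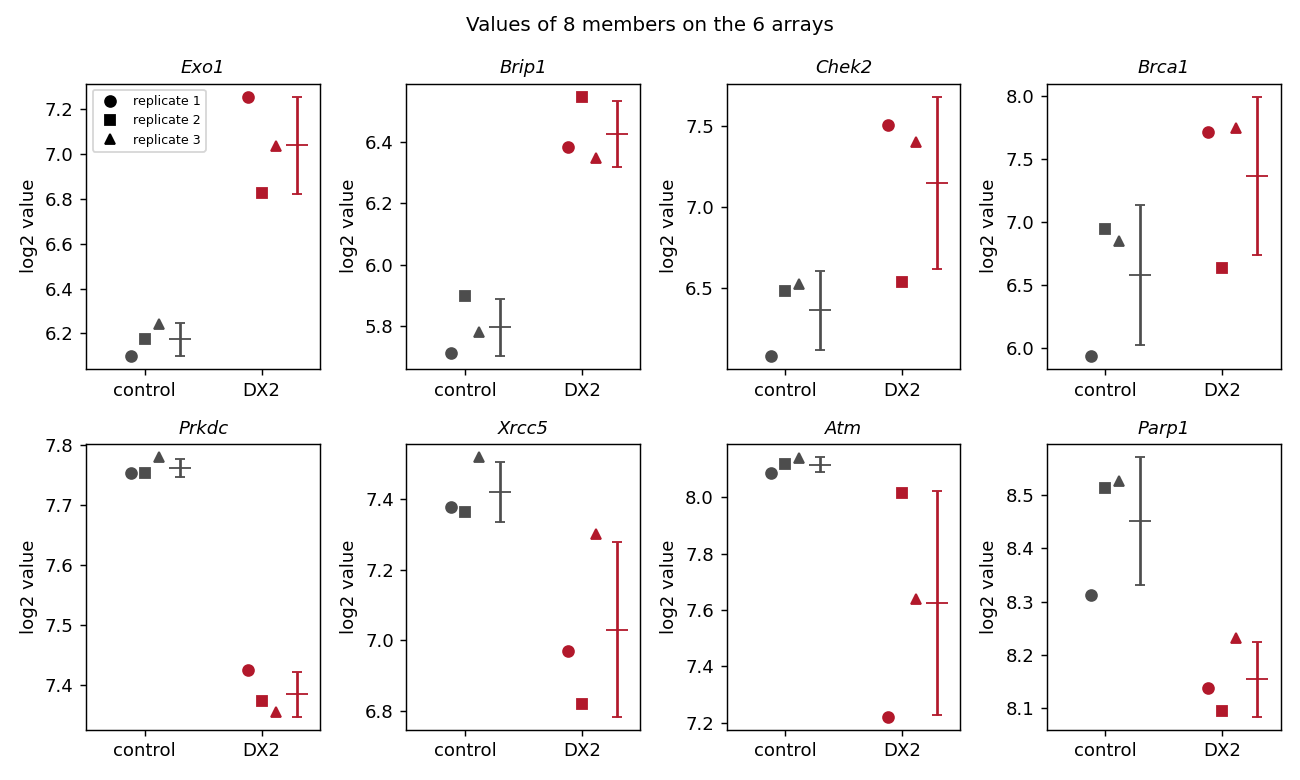
Log2 values of 8 genes on each array (circle, square and triangle for replicates 1, 2 and 3), with the group mean and SD (n = 3 each) to the right; the y axes differ and do not start at 0. Exo1, Brip1 and Chek2 lie above control on all DX2 arrays, Brca1 overlaps through DX2 2, and Prkdc, Xrcc5, Atm and Parp1 lie below control.

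The checkpoint effectors had higher means in DX2, and the kinases above them lower ones. Of the 8 checkpoint and sensor genes 6 had a higher mean in DX2 (median 0.31). At an unadjusted p under 0.05 in limma, 4 of the 8 were higher, against 8.13% of all genes. At that level 1 of the 8, Atm, was lower, against 7.82% of all genes, and 1 gene of 8 cannot be told from that share. Chek2, the effector kinase of ATM, also with an E2F-type site in its promoter, read 6.08, 6.48 and 6.53 in control and 7.51, 6.54 and 7.40 in DX2. DX2 2 lay just above control 3 and the other DX2 arrays far above it, and the difference was 0.79 (SE 0.26, adjusted p = 0.215 in limma). Without DX2 2, the lowest DX2 array for this gene, it was 1.09 and passed (adjusted p = 0.0406). In that setting 370 of all genes passed, against 70 in the main fit. Chek2 passed in no other setting, with an adjusted p of up to 0.480 in limma when 1 array was left out. Chek1, the effector kinase of ATR, read 5.20, 6.32 and 5.85 against 6.63, 6.45 and 6.57. The DX2 arrays were close together and control 1 stood low, so that the difference of 0.76 (SE 0.26, adjusted p = 0.219) was 0.47 without control 1 and 1.02 without control 2.

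Clspn, the adaptor through which ATR activates CHK1, read 6.16, 6.80 and 6.42 in control and 7.52, 6.58 and 7.34 in DX2, with DX2 2 among the controls. Its difference was 0.69 (SE 0.27, adjusted p = 0.270 in limma). The break sensor Nbn differed by 0.36 (SE 0.15, adjusted p = 0.287), while Rad50, which sits in the same complex, read 7.32 to 7.43 in control and 7.37 to 7.46 in DX2. That difference of 0.029 (95% interval -0.20 to 0.26) was near 0 and turned to -0.0013 without control 1 and -0.015 on the 4 arrays low in Xist. Topbp1, the activator of ATR, differed by 0.26 (SE 0.14).

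Atm and Atr, the damage kinases themselves, had lower means in DX2 and were lowest on DX2 1. Atm read 8.09, 8.12 and 8.14 in control and 7.22, 8.01 and 7.64 in DX2. The controls were close together, DX2 1 was lowest and DX2 2 nearly at control level. The difference was -0.49 (SE 0.19, adjusted p = 0.275 in limma), or -0.29 without DX2 1 and -0.68 without DX2 2. Atr read 7.22, 7.24 and 7.44 against 6.81, 7.24 and 6.92, with DX2 2 again at control level and a difference of -0.31 (SE 0.14, adjusted p = 0.349). A second probe set of Atr differed by -0.38.

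End joining genes were lower or level, with 3 of 6 higher, 3 lower and a median of -0.059. Prkdc read 7.75, 7.75 and 7.78 in control and 7.43, 7.37 and 7.35 in DX2, the tightest separation of the lower genes. The difference was -0.38 (95% interval -0.60 to -0.15, adjusted p = 0.129 in limma, unadjusted p = 0.00481), and it lay between -0.40 and -0.36 with any 1 array left out. Xrcc5, the Ku80 subunit that holds broken ends, read 7.38, 7.37 and 7.52 against 6.97, 6.82 and 7.30. DX2 3 was close to control, and the difference of -0.39 (SE 0.15, adjusted p = 0.251) was -0.28 without DX2 2 and -0.53 without DX2 3.

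The other end joining genes overlapped between groups. Xrcc6, the Ku70 partner of Ku80, read 5.60, 6.13 and 6.15 in control and 6.20, 5.95 and 6.17 in DX2, so the 2 Ku subunits did not share a direction (difference 0.15, SE 0.17, and -0.033 without control 1). Trp53bp1, which shields ends from resection, differed by -0.16 (SE 0.13), its effector Rif1 by 0.12 (SE 0.14) and the ligase Lig4 by 0.046 (SE 0.14). Lig4 turned to -0.015 without control 1, -0.0057 without DX2 2, -0.022 without DX2 3 and -0.13 on the 4 arrays low in Xist, and Rif1 to -0.053 on those 4 arrays.

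Mismatch and base repair genes gave smaller differences of both signs. Parp1, the sensor of strand breaks, read 8.31, 8.51 and 8.53 in control and 8.14, 8.09 and 8.23 in DX2. The groups did not overlap, and the difference was -0.30 (SE 0.11, adjusted p = 0.254 in limma), or -0.20 with arrays centred on their medians. Pms2, a subunit of the MutL complex, read 5.55, 5.67 and 5.90 against 5.44, 5.27 and 5.46, a difference of -0.32 (SE 0.13, adjusted p = 0.289). Msh6, a mismatch recognition subunit, differed by 0.062 (95% interval -0.30 to 0.43).

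Polh, the polymerase that bypasses ultraviolet lesions, was the gene of this kind that was higher. It read 6.43, 6.99 and 6.70 in control and 7.60, 7.01 and 7.21 in DX2. DX2 2 exceeded control 2 by only 0.02, and the difference was 0.56 (SE 0.20, adjusted p = 0.229 in limma). Ung, the uracil glycosylase that also acts in antibody diversification, differed by -0.048 (95% interval -0.37 to 0.27), and by 0.044 with centred arrays and 0.047 with a second quantile normalization.

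A wider list of 101 other repair and checkpoint genes, 90 of them measured, had a median difference of 0.015, beside 0.24 for the 33 genes and 0.0085 for all genes. In it 17 genes (18.9%) were higher at an unadjusted p under 0.05, against 8.13% of all genes, and 8 (8.89%) lower, against 7.82%, a share near that of all genes, and 0 passed the adjusted threshold in limma. Among the genes with the smallest p of their branch, some were higher in DX2 and some lower. Gen1, a nuclease that cuts recombination junctions, was higher by 0.86 (SE 0.22), Fignl1, an ATPase of recombination, by 0.78, the Fanconi core complex partner Faap24 by 0.38, the crosslink ubiquitin enzyme Ube2t by 0.60, the replication ligase Lig1 by 0.71 and Ddb1, a subunit of the ultraviolet damage sensor, by 0.35. Wee1, the kinase that restrains CDK1, was higher by 0.65 (SE 0.12, adjusted p = 0.0815) and its opponent Cdc25c by 1.04 (SE 0.30).

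Lower genes of the wider list included Shld2, a shieldin subunit that protects ends for end joining, at -0.48 (SE 0.15, adjusted p = 0.188 in limma), the end joining polymerase Polm at -0.41, the junction nuclease Mus81 at -0.34 and Rev3l, the catalytic subunit of lesion bypass polymerase zeta, at -0.30. Ogg1, the glycosylase that removes oxidised guanine, differed by -0.32. By branch, the median was 0.079 for 18 other recombination genes, -0.014 for 11 Fanconi genes, -0.13 for 5 mismatch genes, -0.034 for 28 excision and bypass genes, 0.050 for 10 end joining genes and 0.26 for 18 checkpoint genes. At an unadjusted p under 0.05 these branches held 3, 3, 2, 3, 1 and 5 higher genes and 2, 0, 0, 4, 2 and 0 lower genes.

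Targets of p53, the transcription factor that ATM and CHK2 stabilise and that AIMP2 is known to bind, did not follow the array pattern of the recombination genes. Of 18 measured targets 14 had a higher mean in DX2 (median 0.13), and 0 passed the adjusted threshold in limma. At an unadjusted p under 0.05, 4 (22.2%) were higher, against 8.13% of all genes, and 2 (11.1%) lower, against 7.82%. The list mean was 6.78, 6.72 and 6.60 in controls 1, 2 and 3 and 6.64, 7.05 and 6.89 in DX2 1, 2 and 3, so DX2 2 was highest and DX2 1 at control level. Cdkn1a, the cell cycle inhibitor p21 and the best known target, read 6.60, 6.29 and 6.09 against 6.37, 7.61 and 7.28. Its groups overlapped through DX2 1, and the difference of 0.76 (SE 0.31, adjusted p = 0.289) was 1.12 without DX2 1.

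Tnfrsf10b and Bbc3 had the smallest p of the p53 targets, and both had separated groups. All their control values lay below the array medians of 5.42 to 5.46, so both were dim. Tnfrsf10b, a death receptor, read 4.49, 4.70 and 4.62 in control and 5.34, 5.53 and 4.92 in DX2 (difference 0.66, SE 0.17, adjusted p = 0.129 in limma). Bbc3, which encodes the death protein PUMA, read 4.82, 4.85 and 4.76 against 5.06, 5.18 and 5.13 (difference 0.31, SE 0.10, adjusted p = 0.197). The ribonucleotide reductase subunit Rrm2b was lower by -0.45 (SE 0.15, adjusted p = 0.207), with 3 of 3 DX2 arrays below control.

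With the 2 arrays high in Xist left out, 1 control stood against 3 DX2 spleens, and the lone control was assumed to vary like the DX2 spleens. Exo1 then differed by 0.79, Brip1 by 0.64, Chek2 by 0.62, Chek1 by 0.70, Prkdc by -0.40, Xrcc5 by -0.49, Atm by -0.51 and Parp1 by -0.37. The median of the 33 genes was 0.17, that of the recombination genes 0.45, that of the Fanconi genes 0.17 and that of the checkpoint genes 0.14. At an unadjusted p under 0.05 there were 3 higher genes and 1 lower, beside 3.06% and 4.12% of all genes, and 0 passed the adjusted threshold in limma, as no gene of the 22180 did in this smaller comparison.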

How the data were processed

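Expression was measured in 6 mouse spleens (3 control, 3 DX2), 1 Affymetrix array each, with Trizol RNA and biotin labelling per the labels. The log2 values deposited by the authors were made with RMA (background correction, normalization between arrays, probe set summary) per the submitters' processing notes; no version is stated in them. The log2 scale was inferred from the range of the values. RMA can understate large differences, and it rests on most genes keeping their level. The precision is limited by the number of arrays.

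Of 41345 probe sets, 23521 had 1 gene symbol by the platform annotation, 1814 several and 16010 none; genes were named from the first kind only, the brightest probe set standing for each of 22180 genes. Groups came from the sample titles. Differences were fitted with limma 3.58.1 in R 4.3.3 (lmFit, eBayes, no covariate, no filter), Benjamini-Hochberg adjusted over all genes, threshold 0.05. The fit was tested on simulated data. The members, the 7 other pathway lists and the 10 marker lists were chosen with earlier results of these data known, so lists are described by counts and medians without a p. Named were all members, and of each described list up to 4 genes of smallest unadjusted p; Cdkn1a was added after its values were seen. Figures and promoter searches used Python 3.11.15. Alternatives are given in the closing section. Same-numbered spleens were not paired (correlations of deviations -0.32, -0.14 and 0.07).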

Additional observations from a re-analysis of the deposited data

How the results depend on the processing

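Of 561 values of the 33 genes under the alternatives, 527 kept direction and side of the threshold and 8 passed it with the direction kept (Exo1, Brip1 or Chek2). As none of the 33 passed in the main fit, keeping the side meant staying short of the threshold. The difference could not change with the replicate block, a mean-variance trend, the dimmest 40% removed or an adjusted p under 0.1. With other choices of probe set it could change for Atr alone. The other 26 values, all of 8 genes with differences within 0.15 of 0, changed sign, and the cause was not tested. They are, without 1 array, Fancm (-0.075 to 0.19), Lig4 (-0.022 to 0.17), Msh6 (-0.013 to 0.21), Rad50 (-0.0013 to 0.052), Ung (-0.16 to 0.031) and Xrcc6 (-0.033 to 0.25). On the 4 arrays low in Xist, and equally with an Xist term, they are Lig4 (-0.13), Rad50 (-0.015), Rif1 (-0.053), Ung (0.18) and Xrcc6 (-0.046). Ung was also 0.00012 with array weights, 0.047 with a second quantile normalization and 0.044 with centring, and Xrcc3 was 0.0032 with centring. Genes past the threshold numbered 70; 1 with the replicate block, 0 on the 4 arrays low in Xist, 2 with an Xist term, 125 without the dimmest 40%, 547 with array weights, 2 with centring, 394 at an adjusted p under 0.1, and 1 to 370 without 1 array. Members past the threshold numbered 0; 2 with array weights, 1 without the dimmest 40%, 1 with a second quantile normalization, 2 at an adjusted p under 0.1, and 0 to 2 without 1 array. Members higher at an unadjusted p under 0.05 in limma numbered 11, beside 8.13% of all genes. They were 7 with the replicate block (6.64% of all genes), 2 with an Xist term (3.76%) and 4 to 15 without 1 array (5.48% to 9.62%). Members lower at that level numbered 5, beside 7.82% of all genes. They were 3 with the replicate block (6.62%), 2 with an Xist term (5.09%), 1 with centring (4.43%) and 1 to 3 without 1 array (5.92% to 8.62%). The counts of lower members and of members entirely below control were added after seeing the data. Members entirely above control were 9 to 18 without 1 array, beside 14.3% to 17.9% of all genes. Members entirely below were 1 with centring, beside 6.24% of all genes, and 5 to 7 without 1 array, beside 14.8% to 18.1%. The members' median kept its sign throughout (0.17 to 0.34). Replicate numbers showed no pairing, so fits with the replicate block say nothing of a weaker effect.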
